A study of Homo sapiens with 6 samples.

Results

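The expression of 10 genes for secreted proteins was examined in SW480 cells, an established human colorectal adenocarcinoma line, that overexpressed either POU5F1B or green fluorescent protein (GFP). The genes were ESM1, TNC, SPOCK2, IGFBP7, FBLN1, FBLN7, LTBP2, CEMIP, SERPINA1 and IL1RN. They were chosen among proteins that the study's text names, from mass spectrometry of culture medium or cell lysates, as more abundant with POU5F1B. The same text names further proteins, among them JAG1, AREG and ROCK2, which are not part of the 10. For 7 of the 10 genes the protein was named from SW480 cells. For the other 3 (FBLN7, CEMIP and IL1RN) it was named from LS1034, another colorectal cancer line, alone. The rule for the choice used no RNA value, although it was set with earlier results of these RNA data known. The 10 genes are 10 of the 63677 identifiers of the count tables, and 9 of them are among the 14286 genes with enough counts to be tested.

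Cells of both groups had been transduced with a doxycycline-inducible vector, for GFP in one group and for POU5F1B in the other, and both received 1 ug/mL doxycycline for 72 h before harvest. Poly(A) RNA was sequenced from 3 libraries of each group, all from this one line, and no source used here states whether the libraries came from separate transductions, so the p-values measure only the spread between these libraries. Protein was measured by the study in other cultures, kept without serum where medium was collected, so RNA and protein were not taken from the same cells. The proteins of SERPINA1 and CEMIP were found in lysates and that of IGFBP7 in both medium and lysate. Those of the other genes were found in medium.

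Matricellular proteins are secreted into the extracellular matrix but serve less as scaffold than as modulators, since they bind growth factors, proteases and cell surface receptors and so tune adhesion, migration and signalling. In the intestine most of them are known as products of stromal cells, and carcinoma cells can make them as well. The amount of such a protein in culture medium depends on its transcript, and also on translation, secretion, shedding and turnover, of which RNA sequencing reads only the first.

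POU5F1B itself was read first, as a check of the labels. Its counts in replicates 1, 2 and 3 were 6, 5 and 1 with GFP and 15027, 11393 and 1458 with POU5F1B, so its high values fell in the POU5F1B libraries, with the lowest of these in replicate 3. The libraries held between 10767947 and 12787637 counts. GFP replicate 3 stood apart from all others across the tested genes, with a root mean square difference in log2 CPM (read counts normalised to TMM-scaled library sizes) of 0.803 to 0.99 from the other 5 libraries, whereas replicates 1 and 2 differed by 0.33 within GFP and by 0.343 within POU5F1B. POU5F1B replicate 3 differed by 0.577 and 0.619 from POU5F1B replicates 1 and 2. From GFP replicates 1 and 2 it differed by 0.611 and 0.625. The values below are therefore given with and without the libraries of replicate 3. Epithelial keratins were abundant, with 2995 CPM of KRT8 in its lowest library.

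The levels of the genes were first compared with each other, as CPM per kilobase of exon. IGFBP7, a secreted protein that binds insulin-like growth factors, was the highest, with a mean of 104 over the 6 libraries (range 64.6 to 148), and its lowest library lay above the highest library of every other gene. LTBP2, a fibrillin-like microfibril protein, followed with 36.3 (12.3 to 46.8), and SERPINA1, or alpha-1-antitrypsin, with 32.7 (14.4 to 53.5). LTBP2 exceeded SERPINA1 in only 3 of 6 libraries, so these neighbours could not be ranked. TNC (8.88), ESM1 (7.19), FBLN1 (4.82) and CEMIP (3.70) had overlapping ranges, each with its neighbour. SPOCK2 (0.418) and FBLN7 (0.403) formed a lower tier, separated from CEMIP without overlap, and did not differ beyond their spread. IL1RN was the lowest, at 0.0364.

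**Figure D1:**
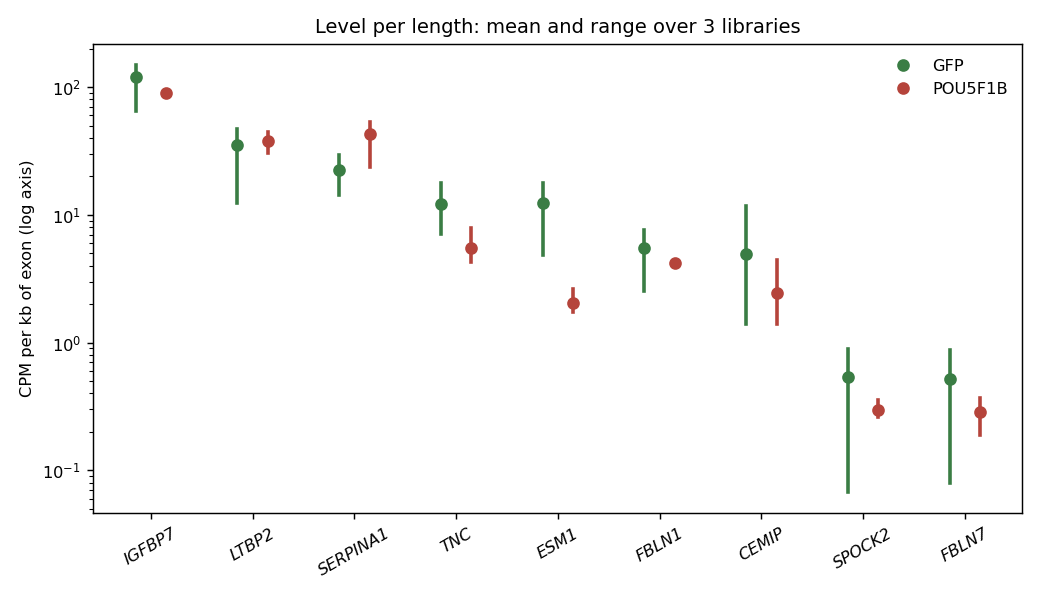
Level of 9 genes as CPM per kilobase of exon (log axis) in GFP (green) and POU5F1B (red) libraries, with the mean as a dot and the range over 3 libraries as a line. IGFBP7 lies highest, at a mean of 119 in GFP and 89.3 in POU5F1B libraries, and ESM1 is the gene whose 2 ranges lie apart; IL1RN, with 0 counts in 2 libraries, is not drawn.

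ESM1 encodes endocan, a secreted dermatan sulfate proteoglycan first known from endothelial cells, where VEGF induces it. The gene (ENSG00000164283) lies on the minus strand of chromosome 5 at 54273695 to 54318499 (GRCh37). It had 48.3, 38.2 and 13.1 CPM in GFP replicates 1, 2 and 3 and 4.88, 7.04 and 4.66 CPM in POU5F1B replicates 1, 2 and 3. All POU5F1B libraries thus lay below all GFP libraries, and the lowest GFP library was again replicate 3. The mean was 33.2 ± 18.1 CPM with GFP against 5.53 ± 1.32 CPM with POU5F1B (SD, n = 3), a 6.0-fold difference. The log2 fold change was -2.42 ± 0.60 (SE), with a 95% confidence interval of -3.86 to -0.99, an unadjusted p of 0.00537 and an adjusted p of 0.236 from limma voom, so that it did not pass the threshold of an adjusted p under 0.05 with a fold above 2. An exact two-sided permutation test of the 6 values gave p = 0.1, the smallest that 3 against 3 libraries can reach. ESM1 was the 1 gene of the 9 tested whose groups did not overlap, whereas 9.24% of all tested genes lay lower without overlap and 19.4% did so in either direction.

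Within replicates 1 and 2, ESM1 fell by 2.89 on the log2 scale (SE 0.22; limma voom adjusted p = 2.32e-06), and without GFP replicate 3 it fell by 2.99 (adjusted p = 0.00146). The replicate 3 libraries, as 1 against 1, differed by -1.45 in log2 CPM, in the same direction. POU5F1B replicate 3, the library with the fewest POU5F1B counts of its group, had 4.66 CPM of ESM1. This was the lowest value, but close to the 4.88 CPM of POU5F1B replicate 1.

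TNC encodes tenascin-C, a large hexameric glycoprotein that loosens cell adhesion to fibronectin and is known from wound edges and tumour stroma. The gene (ENSG00000041982) lies on chromosome 9 at 117781854 to 117880486 on the minus strand. It had 170.1, 114 and 68.4 CPM in the GFP libraries against 41.0, 41.2 and 76.1 CPM in the POU5F1B libraries, in the order of replicates 1, 2 and 3. The groups overlapped by a single library on each side, since POU5F1B replicate 3 exceeded GFP replicate 3. The means were 117 ± 50.9 and 52.8 ± 20.2 CPM (SD, n = 3), a 2.23-fold difference, with a log2 fold change of -1.12 ± 0.39 (SE; 95% interval -2.05 to -0.19) and an adjusted p from limma voom of 0.350. With replicates 1 and 2 alone TNC fell by 1.77 on the log2 scale (limma voom adjusted p = 1.44e-05), and in the replicate 3 libraries the difference was 0.15.

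SPOCK2 encodes testican-2, a secreted proteoglycan of the SPARC family. Its counts in replicates 1, 2 and 3 were 50, 75 and 5 with GFP and 29, 19 and 20 with POU5F1B, and GFP replicate 3 was the lowest of all 6. In CPM the means were 3.45 ± 2.72 and 1.90 ± 0.331 (SD, n = 3), and the log2 fold change of -0.27 ± 0.92 (SE) was within the spread (limma voom adjusted p = 0.939). With replicates 1 and 2 alone SPOCK2 fell by 1.28 on the log2 scale (limma voom adjusted p = 0.00843), whereas the replicate 3 libraries differed by 1.61 the other way.

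FBLN7, fibulin-7, which binds cell surface receptors and is among the proteins named from LS1034, had a like course. Its counts, in the same order, were 48, 75 and 6 with GFP and 31, 21 and 15 with POU5F1B, with the lowest value again in GFP replicate 3. Its log2 fold change was -0.39 ± 0.89 (SE; limma voom adjusted p = 0.894) over all libraries and -1.14 ± 0.31 (adjusted p = 0.0156) in replicates 1 and 2. FBLN1, fibulin-1, a calcium-binding partner of fibronectin and of basement membranes, had 55.4, 45.9 and 18.4 CPM in GFP against 32.2, 29.4 and 29.6 CPM in POU5F1B libraries. The POU5F1B libraries lay closely together, between GFP replicate 3 below and GFP replicates 1 and 2 above. Its log2 fold change was -0.26 ± 0.40 (SE; limma voom adjusted p = 0.837), and in replicates 1 and 2 it was -0.72 ± 0.13 with an adjusted p of 0.0016, a fold below 2.

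IGFBP7 showed the same order. It had 286, 279.8 and 125 CPM in the GFP libraries and 161, 179 and 176 CPM in the POU5F1B libraries. All POU5F1B values again lay between GFP replicate 3 and the other GFP libraries. The log2 fold change was -0.33 ± 0.32 (SE; 95% interval -1.09 to 0.44; limma voom adjusted p = 0.714), and in replicates 1 and 2 it was -0.75 ± 0.08 with an adjusted p of 3.24e-05, again below 2-fold. The exons of IGFBP7 share 260 bases with POLR2B on the other strand, and since the strand setting of the counting was not given in the sources used here, a part of its counts is uncertain.

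LTBP2 is of the family of latent TGF-beta binding proteins, although it is known to bind microfibrils and not latent TGF-beta itself. It had 414, 424 and 112 CPM in the GFP libraries and 401, 347 and 277 CPM in the POU5F1B libraries. Only GFP replicate 3 stood apart, and the other 5 libraries spanned less than a 2-fold range. The log2 fold change was 0.32 ± 0.50 (SE; 95% interval -0.88 to 1.52; limma voom adjusted p = 0.837), and it turned to -0.32 without GFP replicate 3 and to -0.18 in replicates 1 and 2, neither with an adjusted p under 0.05.

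CEMIP encodes a protein that binds hyaluronan and is needed for its breakdown. It differed from the genes above in that the replicate 3 libraries were the high ones, with 13.6, 10.6 and 89.4 CPM in GFP and 10.9, 10.6 and 34.0 CPM in POU5F1B replicates 1, 2 and 3. Within replicates 1 and 2 the 4 values lay between 10.6 and 13.6 CPM, a log2 fold change of -0.17 with a 95% interval of -0.58 to 0.24. Over all libraries it was -0.53 ± 0.89 (SE; limma voom adjusted p = 0.849), and without GFP replicate 3 it turned to 0.39. Its exons overlap MESD on the other strand by 224 bases.

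SERPINA1 was the gene with the largest value in the other direction. Its product, alpha-1-antitrypsin, is the main circulating inhibitor of neutrophil elastase and is made chiefly by the liver, but also by intestinal epithelium. It had 144, 114 and 70.8 CPM in GFP replicates 1, 2 and 3 and 262, 256 and 115 CPM in POU5F1B replicates 1, 2 and 3. Replicates 1 and 2 of POU5F1B exceeded every GFP library, while POU5F1B replicate 3 lay between GFP replicates 1 and 2. The means were 109.8 ± 36.9 and 211 ± 82.8 CPM (SD, n = 3), a 1.92-fold difference, with a log2 fold change of 0.91 ± 0.39 (SE; 95% interval -0.03 to 1.84; limma voom adjusted p = 0.428). With replicates 1 and 2 alone SERPINA1 rose by 1.00 on the log2 scale, at the limit of the 2-fold threshold (limma voom adjusted p = 2.21e-05). It was higher with POU5F1B in 3 of 3 comparisons of same-numbered libraries, by 0.86, 1.16 and 0.70 in log2 CPM. Whether libraries of the same number belong together is not given in the sources used here, so this pairing is uncertain, and the groups overlap. Without GFP replicate 3 the value was 0.61 (adjusted p = 0.292), so the call in replicates 1 and 2 was not kept when POU5F1B replicate 3 was retained.

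IL1RN encodes the secreted antagonist that occupies the interleukin-1 receptor without signalling. Its counts in replicates 1, 2 and 3 were 3, 1 and 0 with GFP and 5, 1 and 0 with POU5F1B. A floor of 3 counts corresponds to 0.229 to 0.278 CPM, so the transcript was at or near the limit of detection in every library, no test was made, and no difference was detectable at this depth. Its protein was named from LS1034 and not from SW480 cells.

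**Figure D2:**
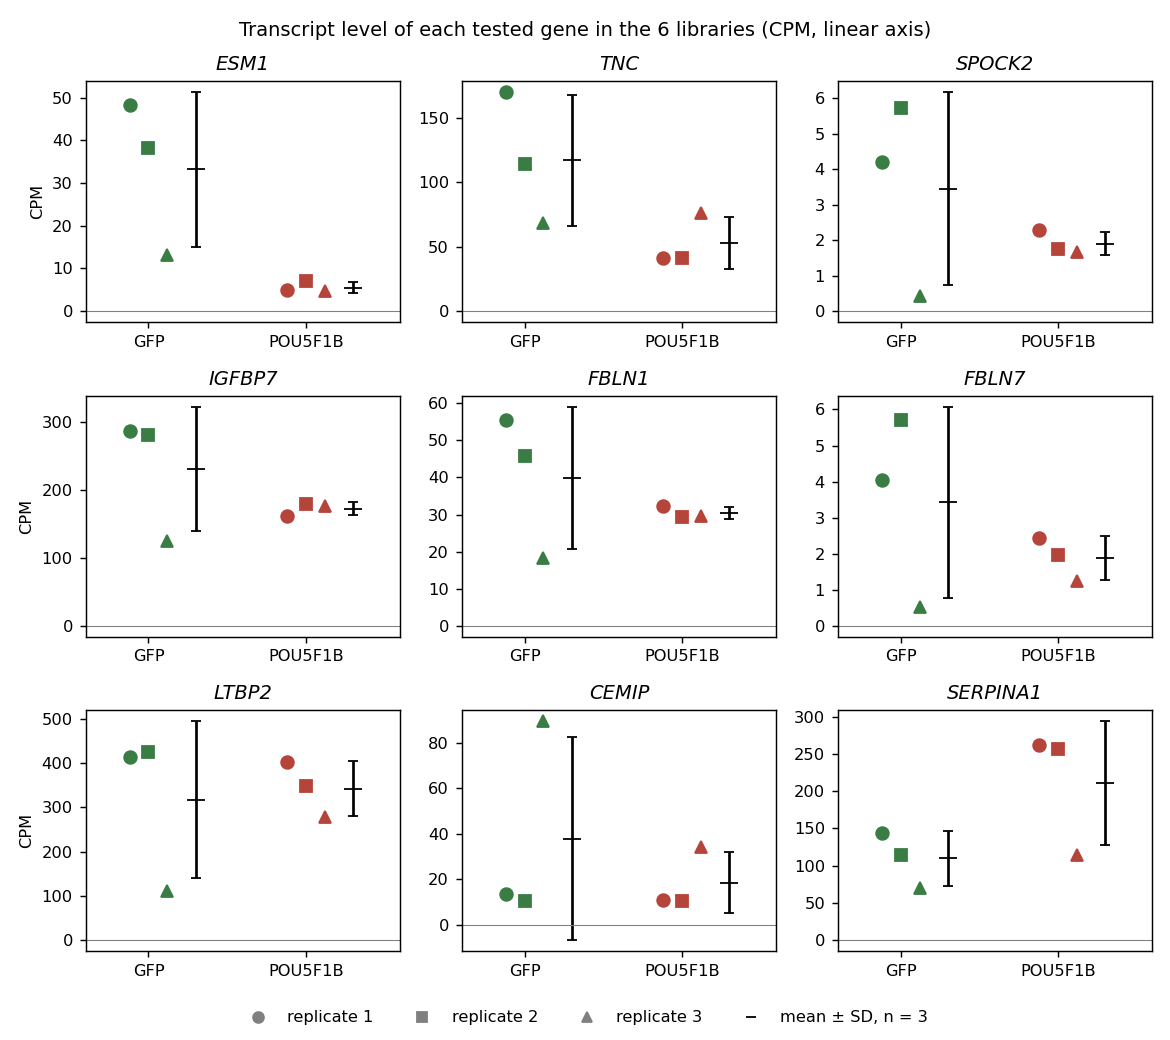
Transcript level in CPM (linear axes) of the 9 tested genes in each library; circles, squares and triangles mark replicates 1, 2 and 3, and bars the mean ± SD of 3 libraries. The GFP triangle is the lowest GFP point in 8 of the 9 panels and the highest in the CEMIP panel, and ESM1 is the panel in which the groups do not overlap.

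The promoters of the 2 genes with the largest differences, ESM1 and TNC, and both promoters of SERPINA1, whose transcripts from separate start sites are summed in gene counts, are shown to let the sequence be read beside the values. They are the 250 bases before the RefSeq start, 5′ to 3′, with coordinates from a unique exact match to GRCh37. Capitals mark matches to TATAAA, the TATA box (the given strand only), or to ATGCAAAT, the octamer that POU proteins are known to bind (both strands). No matches overlapped.
ESM1 (chr5:54281422-54281671, minus strand): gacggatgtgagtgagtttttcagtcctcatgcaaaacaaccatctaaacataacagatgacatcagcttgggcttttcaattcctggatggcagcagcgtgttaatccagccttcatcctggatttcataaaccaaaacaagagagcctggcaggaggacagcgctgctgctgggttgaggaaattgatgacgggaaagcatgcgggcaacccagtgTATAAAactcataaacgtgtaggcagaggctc
TNC (chr9:117880437-117880686, minus strand): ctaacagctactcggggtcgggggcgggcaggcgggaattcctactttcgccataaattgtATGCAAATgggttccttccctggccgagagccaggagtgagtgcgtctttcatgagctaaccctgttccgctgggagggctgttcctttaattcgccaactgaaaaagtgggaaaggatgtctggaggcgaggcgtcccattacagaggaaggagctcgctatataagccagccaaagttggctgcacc
SERPINA1 first promoter (chr14:94856973-94857222, minus strand): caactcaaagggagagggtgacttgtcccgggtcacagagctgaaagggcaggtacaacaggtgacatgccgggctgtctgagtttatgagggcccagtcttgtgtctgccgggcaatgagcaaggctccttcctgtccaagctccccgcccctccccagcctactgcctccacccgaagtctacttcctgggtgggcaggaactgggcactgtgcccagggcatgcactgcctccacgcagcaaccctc
SERPINA1 second promoter (chr14:94854940-94855189, minus strand): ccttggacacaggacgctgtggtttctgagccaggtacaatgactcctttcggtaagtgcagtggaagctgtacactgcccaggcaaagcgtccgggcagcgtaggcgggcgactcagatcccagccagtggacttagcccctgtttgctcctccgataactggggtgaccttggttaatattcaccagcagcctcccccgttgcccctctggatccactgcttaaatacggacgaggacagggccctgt
The octamer was found in TNC, at positions -189 to -182 from the start, and in no other of the 13 promoters of the 9 genes that had an entry (IGFBP7 had none). Of 35116 promoters of this length, 1.63% hold it. TATAAA stood at -32 to -27 in ESM1 and at -30 to -25 in CEMIP and in 1 promoter of IL1RN, where 6.8% of all promoters hold it. TGANTCA, the AP-1 motif (both strands), was present in 1 promoter of IL1RN only, with 6.57% over all. A match describes the letters and not a bound site. The study reports that POU5F1B lies mainly in the cytoplasm. It also states, without showing the data, that chromatin immunoprecipitation found no significant recruitment of POU5F1B to the genome.

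Counted together, 0 of the 9 tested genes passed the threshold with limma voom over all 6 libraries, as did 0.0% of the 14286 tested genes. POU5F1B itself did not pass in this fit, with a log2 fold change of 10.73 and a limma voom adjusted p of 0.252. The lack of calls over all 6 libraries therefore does not show that RNA levels were equal. At an unadjusted p under 0.05 there were 2 of the 9, ESM1 and TNC, both lower with POU5F1B, where 11.9% of all tested genes reached that level and 5.82% did so lower. The quasi-likelihood test of edgeR also passed 0 genes (3 at an unadjusted p under 0.05, against 12% of all tested genes). DESeq2 passed 1, ESM1, which was lower, where it called 1.62% of all tested genes in either direction and 1.04% lower. With sample quality weights in limma voom 4 passed, all of them lower, where 7.54% of all tested genes passed and 4.4% were lower. The log2 fold change was below 0 for 7 of the 9, with a median of -0.327, against 53.1% of all tested genes and a median of -0.0228. These values moved with single GFP libraries. Without GFP replicate 1 it was 5 of the 9 with a median of -0.0152 (all tested genes -0.0289), without GFP replicate 2 it was 5 of the 9 with a median of -0.0503 (all tested genes -0.0154), and without GFP replicate 3 it was 7 of the 9 with a median of -0.736 (all tested genes -0.00919). Of the 7 genes whose proteins were named from SW480, 5 had a value below 0 and 2 (SERPINA1 and LTBP2) above 0, and in replicates 1 and 2 these counts were 6 and 1, with 50.5% of all tested genes below 0. Both tested genes named from LS1034 alone were below 0.

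With replicates 1 and 2 only, 5 of the 9 genes passed the threshold, where 8.36% of all tested genes did. ESM1, TNC, SPOCK2 and FBLN7 fell, where 5.15% of all tested genes fell, and SERPINA1 rose, where 3.21% rose. Another 2, IGFBP7 and FBLN1, had an adjusted p under 0.05 but a fold below 2, which made 7 of the 9 at that p, where 29.7% of all tested genes reached it. Without GFP replicate 3 there were 4, all of them falls (ESM1, TNC, SPOCK2 and FBLN7), where 4.16% of all tested genes passed and 2.78% fell. An adjusted p under 0.05 was then reached by 6 of the 9, against 12.1% of all tested genes. These sets leave out a library for its distance from the others and hold as few as 2 libraries in a group.

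**Figure D3:**
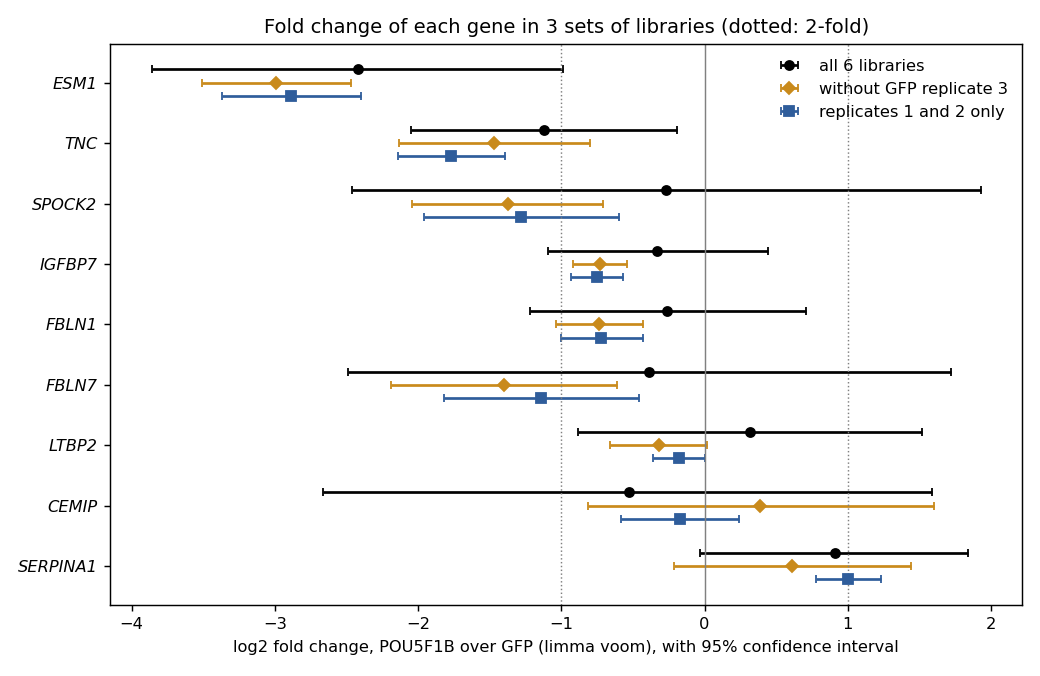
Log2 fold change of POU5F1B over GFP with its 95% confidence interval for each tested gene, from limma voom on all 6 libraries (black), without GFP replicate 3 (orange) and on replicates 1 and 2 only (blue), with dotted lines at 2-fold. The intervals of ESM1 and TNC lie below 0 in all 3 sets, and those of SPOCK2, FBLN7, IGFBP7 and FBLN1 only in the 2 sets without GFP replicate 3.

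In GFP replicate 3 the value lay below both other GFP libraries for 8 of the 9 genes, where this held for 43.5% of all tested genes, above both for CEMIP, where it did for 47.6%, and below all 5 other libraries for 6 of the 9, where it held for 29.2%. The median difference from the mean of GFP replicates 1 and 2 was -1.45 in log2 CPM over the 9 genes and 0.035 over all tested genes. SPOCK2 (-3.08) and FBLN7 (-2.85) lay farthest below and CEMIP (2.88) above. POU5F1B replicate 3 lay closer to its own group for each of the 9 genes except SERPINA1, and was higher by 1.65 for CEMIP and 0.89 for TNC and lower by 1.16 for SERPINA1. In the replicate 3 libraries, compared as 1 against 1, POU5F1B was below GFP for 2 of the 9 genes, ESM1 and CEMIP, where it was for 49.5% of all tested genes.

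**Figure D4:**
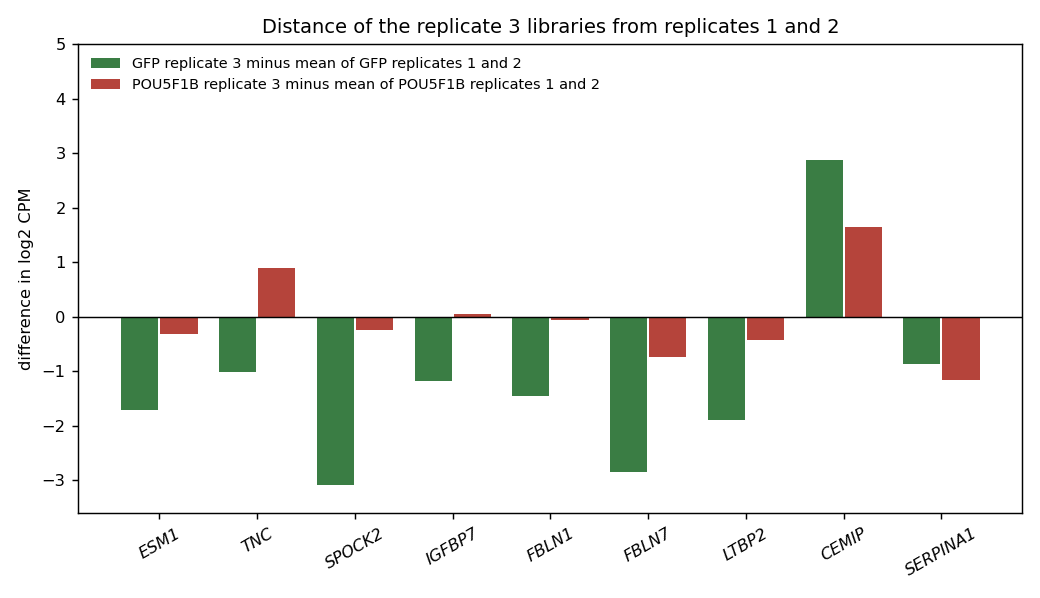
Difference in log2 CPM of GFP replicate 3 from the mean of GFP replicates 1 and 2 (green bars), and of POU5F1B replicate 3 from the mean of POU5F1B replicates 1 and 2 (red bars), for the 9 tested genes. The green bars run from -3.08 for SPOCK2 to 2.88 for CEMIP and are negative for 8 genes.

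Markers of other cell types were read beside these values, since fewer cells of a type and less RNA per cell cannot be told apart in bulk RNA. Of 8 fibroblast markers 2 had enough counts to be tested, COL1A1 and PDGFRB, and 2, COL3A1 and FAP, had 0 counts throughout. The summed level of the list was 28.0 to 172 CPM in GFP and 13.4 to 22.7 CPM in POU5F1B libraries, mostly from COL1A1 and PDGFRB. COL1A1 had 142, 118 and 16.9 CPM in GFP and 6.76, 5.56 and 9.49 CPM in POU5F1B replicates 1, 2 and 3. Of 6 endothelial markers only VWF was tested, with 1.13 to 6.37 CPM, CDH5, KDR and TEK had at most 2 counts in a library, and PECAM1 was not analysed here. Leukocyte markers summed to at most 1.6 CPM. The 9 epithelial markers summed to 6367 to 9581 CPM in GFP and 7909 to 8931 CPM in POU5F1B libraries. Among them EPCAM had 86.8, 89.4 and 519 CPM in GFP and 320.3, 331 and 252 CPM in POU5F1B libraries, and CDH1, or E-cadherin, 33.7, 30.2 and 72.7 against 164, 159 and 98.3 CPM. Over all libraries 6 of the 8 tested epithelial markers had a log2 fold change above 0 and 2 below. CDX2, an intestinal transcription factor, was one of the latter, with 27.7, 19.5 and 33.2 CPM in GFP against 16.4, 14.6 and 37 CPM in POU5F1B libraries, and KRT20, at 0.786 to 1.45 CPM, was the other. LGALS4 had at most 9 counts in a library. COL1A1, ESM1 and TNC were thus highest in GFP replicates 1 and 2, where EPCAM was lowest. PDGFRB (28.2 and 28.7 CPM) was also highest there, and VIL1 (23.1 and 14.0 CPM) also lowest. LUM, another fibroblast marker, had 0.0 CPM in both of these libraries and 2.96 CPM in GFP replicate 3. In the replicate 3 libraries of GFP and POU5F1B, COL1A1 went from 16.9 to 9.49 CPM and TNC from 68.4 to 76.1 CPM. The part of these markers in the results was not tested.

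Other genes of the same families were read from 8 lists, in which 0 genes passed the threshold with limma voom over all libraries. Among tenascins, thrombospondins, CCN and SPARC proteins, 8 of 24 were tested, 4 with a value above and 4 below 0 (median -0.211). TGFBI, an integrin-binding matrix protein, had 90.3 ± 10.4 CPM with GFP against 277 ± 57.3 CPM with POU5F1B (SD, n = 3; log2 fold change 1.6, limma voom adjusted p = 0.132), and FSTL1, a SPARC relative, 3.25 ± 2.07 and 0.253 ± 0.142 CPM (-3.30, adjusted p = 0.252). The abundant CCN1 had 402 ± 180.3 and 409 ± 135 CPM. In replicates 1 and 2, 3 of this list passed the threshold as lower (SPARC, CCN2 and FSTL1) and TGFBI as higher, where 5.15% of all tested genes did as lower and 3.21% as higher. SPARC (33.2 and 72.8 CPM) and CCN2 (14.2 and 22.7 CPM) went the other way in the replicate 3 libraries of GFP and POU5F1B. FSTL1 and TGFBI kept their direction there. The counts in replicates 1 and 2 given for the other lists use the same threshold, an adjusted p under 0.05 with a fold above 2, and stand against the same shares.

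Of 20 fibulins, fibrillins and proteins around latent TGF-beta 12 were tested, with 9 below 0 (median -0.131). TGFB2, a TGF-beta ligand, had 64.5, 59.7 and 27.3 CPM in GFP and 7.16, 6.67 and 7.83 CPM in POU5F1B libraries, so its groups lay apart as those of ESM1 did (-2.71 ± 0.43 SE on the log2 scale; adjusted p = 0.185 by limma voom). MFAP2, a microfibril protein, had a value of -0.88 (adjusted p = 0.350), and FN1, fibronectin, -0.89 (adjusted p = 0.401), while LTBP3, a relative of LTBP2, stood at -0.06. In replicates 1 and 2, 4 of the 12 passed the threshold as lower (LTBP1, FN1, MFAP2 and TGFB2). Below 2-fold, LOXL1 was higher (0.704, limma voom adjusted p = 0.0304) and EFEMP2 lower (-0.90, adjusted p = 0.00237). LTBP1 went the other way in the replicate 3 libraries of GFP and POU5F1B, with 11.1 and 23.6 CPM. LOXL1 (10.6 and 8.24 CPM) and EFEMP2 (8.53 and 14.7 CPM) did so too. FN1, MFAP2 and TGFB2 were lower with POU5F1B there as well.

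Of 14 genes of insulin-like growth factor binding and reception 13 were tested, 5 above and 8 below 0 (median -0.00893). IGFBP3 had 104 ± 14.8 CPM with GFP against 142 ± 9.84 CPM with POU5F1B (SD, n = 3; limma voom adjusted p = 0.297), and IGFBPL1 2.91 ± 0.910 and 0.878 ± 0.351 CPM (adjusted p = 0.239). IGFBP4 and IGF2R, the abundant members, had log2 fold changes of 0.01 and -0.34. Of 15 matrix receptors 12 were tested, 7 above and 5 below 0 (median 0.169), among them SDC4, a syndecan, at 0.88 and ITGB1, the common beta subunit of matrix integrins, at -0.51 (limma voom adjusted p = 0.220 and 0.235), and the abundant ANXA2 and ITGA3 at 0.28 and -0.26. In replicates 1 and 2, 3 genes of insulin-like growth factor binding fell (IGFBPL1, HTRA1 and IGF1), and of the receptors ITGA2 and ITGB6 rose and PTPRZ1 fell. PTPRZ1 was low there, with 0.842 and 0.838 CPM in GFP and 0.0 and 0.0927 CPM in POU5F1B libraries. In the replicate 3 libraries of GFP and POU5F1B it had 8.09 and 5.66 CPM. ITGA2 (66.0 and 36.4 CPM) and ITGB6 (6.96 and 3.0 CPM) were lower with POU5F1B in replicate 3. HTRA1 was higher with POU5F1B there (15.1 and 21.4 CPM), and IGFBPL1 and IGF1 were lower as in replicates 1 and 2.

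Proteoglycans other than ESM1 and SPOCK2 had a median of -0.427, with 6 of 18 tested and 5 of these below 0. The glypicans GPC4 and GPC2 had values of -1.25 and -1.16 (limma voom adjusted p = 0.301 and 0.318), and both fell in replicates 1 and 2, while AGRN and COL18A1 stood at 0.09 and -0.17. Of 13 hyaluronan genes 10 were tested, 5 on each side of 0 (median -0.117). HAS2, a hyaluronan synthase, had 24.9, 21.2 and 43.8 CPM in GFP and 0.708, 1.67 and 15.9 CPM in POU5F1B libraries, without overlap (-3.38 ± 0.92 SE on the log2 scale; adjusted p = 0.270 by limma voom). CEMIP2, which degrades hyaluronan, and CD44, its receptor, had values of -0.56 and -0.29, and HAS2 and CEMIP2 fell in replicates 1 and 2. CEMIP2 went the other way in the replicate 3 libraries of GFP and POU5F1B, with 218 and 273 CPM. GPC4 and GPC2 were lower with POU5F1B there too.

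Of 25 serpins and neutrophil proteases 13 were tested, 8 above and 5 below 0 (median 0.0873). SERPINF1 had a log2 fold change of -0.64 and SERPINH1, a collagen chaperone, of -0.46 (limma voom adjusted p = 0.350 and 0.612). In replicates 1 and 2, SERPINB5 rose and SERPINA5 and SERPING1 fell. Each of these went the other way in the replicate 3 libraries of GFP and POU5F1B. SERPINB5 had 28.0 and 17.1 CPM there, SERPINA5 1.39 and 2.0 CPM, and SERPING1 0.348 and 2.0 CPM. Of 18 genes of the interleukin-1 system 8 were tested, 5 above 0 (median 0.394), with the smallest p for SIGIRR and IL1RAP, at 0.39 and 0.95 (limma voom adjusted p = 0.487 and 0.519), with the abundant IRAK1 and MYD88 at -0.02 and 0.40. IL1RAP rose in replicates 1 and 2, whereas the replicate 3 libraries of GFP and POU5F1B had 1.22 and 1.08 CPM.

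**Figure D5:**
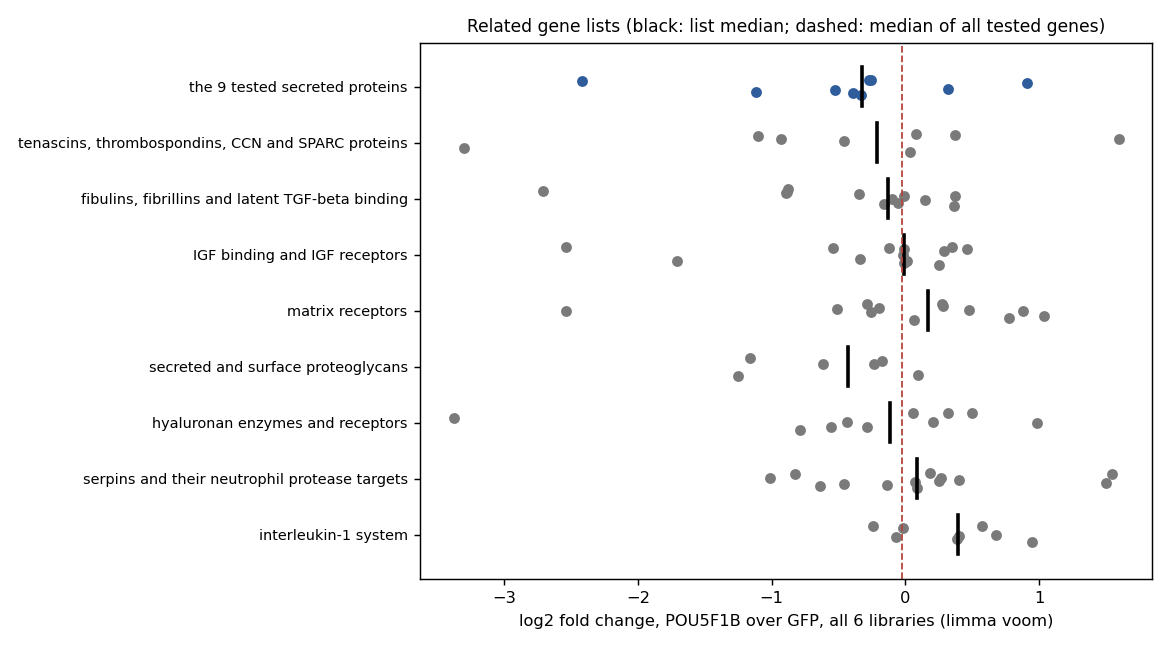
Log2 fold change of POU5F1B over GFP over all 6 libraries (limma voom) for the 9 tested secreted proteins (blue) and the tested genes of 8 related lists (grey), with list medians as black bars and the median of all tested genes, -0.0228, as a dashed line. The list medians run from -0.427 for proteoglycans to 0.394 for the interleukin-1 system, and no gene passed the threshold.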

How the data were processed

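Poly(A) RNA of 6 SW480 libraries was analysed. The authors deposited 1 table of raw read counts per library. Per the study's methods, the authors mapped reads to hg19 (GRCh37) with hisat2 and counted uniquely mapped reads with featureCounts on genes and transposable elements, which loses reads from repeated sequence; the strand setting and annotation release are not given in the sources used here. Depth was 10767947 to 12787637 counts per library, floors of 3 counts cover counting error only, and the intervals of fold changes rest on the spread between libraries.

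Groups and replicate numbers came from sample titles. Low counts were removed by filterByExpr (edgeR 4.0.16), which kept 14286 genes, and libraries were scaled by TMM and tested with voom of limma 3.58.1 in R 4.3.3, as the study's methods state, and p-values were adjusted by Benjamini-Hochberg across the 14286 genes (threshold: adjusted p under 0.05 and fold above 2). The study reports enough upregulated genes in SW480 cells for an annotation of terms, whereas 0.0% of tested genes passed here. The reason for this difference was not tested. Log2 CPM used a prior count of 2. Exon lengths came from GENCODE on GRCh37, and promoters from RefSeq.

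Alternatives were the edgeR quasi-likelihood test, DESeq2 1.42.0, sample quality weights, other scalings and filters, a replicate block, replicates 1 and 2 only, and each library left out. The genes, the 8 related lists and the 4 marker lists were chosen with earlier results of these data known, and 99.46% of list entries matched. Genes named from the lists are the 2 with the smallest p and the 2 with the highest mean CPM, beside markers and those that passed in replicates 1 and 2, which were named after their values were seen. The values of 1 gene that this rule names are not reported here. In simulated counts for this comparison with the spread of all replicates, 14286 genes of which 200 were changed 4-fold (2 on the log2 scale), voom called 145 changed and 8 unchanged genes. Each gene had the same spread in every simulated library, so no library stood apart as GFP replicate 3 did. The simulation therefore does not tell how many changes of this size the fit would find in these data.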

Additional observations from a re-analysis of the deposited data

How the results depend on the processing

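None of the 9 genes passed the threshold either in the edgeR test, under scaling by total counts, upper quartile or DESeq2 size factors, with no filter, at least 10 counts in every sample (7 genes tested) or with the replicate block. The number was 1 with DESeq2, 4 with sample quality weights (0.111 for GFP replicate 3), 5 with replicates 1 and 2 only, and 0 to 4 across the fits that left out 1 library, 4 without GFP replicate 3. Of the 82 tested genes of the 8 related lists, 0 passed as reported, 5 with DESeq2 (1.62% of all tested genes), 16 with quality weights (7.54%), 23 with replicates 1 and 2 only (8.36%) and 0 to 10 with 1 library left out, 10 without GFP replicate 3 (4.16%). ESM1 kept its direction in each setting (-2.99 to -2.07), as did TNC (-1.77 to -0.81), IGFBP7 (-0.75 to -0.12) and SERPINA1 (0.61 to 1.30). Sign changes were those of SPOCK2 without GFP replicate 1 (0.16) or 2 (0.46), FBLN1 without GFP replicate 1 (0.04), FBLN7 without GFP replicate 2 (0.31), LTBP2 without GFP replicate 3 (-0.32), on replicates 1 and 2 only (-0.18) or with quality weights (-0.15), and CEMIP without GFP replicate 3 (0.39) or with quality weights (0.04). The cause was not tested. The range was -1.37 to 0.46 for SPOCK2, -0.74 to 0.04 for FBLN1, -1.40 to 0.31 for FBLN7, -0.32 to 0.67 for LTBP2 and -1.13 to 0.39 for CEMIP.

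Whether same-numbered libraries belong together is not given in the sources used here. Their deviations from the group means correlated across genes with 0.242, 0.0883 and 0.165. Libraries of unlike numbers gave -0.277 (GFP replicate 3 with POU5F1B replicate 1) to 0.25 (GFP replicate 2 with POU5F1B replicate 1). These values do not settle the pairing. With the replicate number as a block, 0 of the 9 genes and 0 of the list genes passed, and POU5F1B itself did (log2 fold change 10.83, limma voom adjusted p = 0.0275). The counts of SPOCK2 and FBLN7 reached at most 75 in a library and those of IL1RN at most 5.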

Other observations

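The genes whose course over the 6 libraries was most like that of the most variable members were looked up among all tested genes, by the root mean square difference of log2 CPM after each gene was centred on its own mean. These are descriptions over 6 libraries, of which GFP replicate 3 stands apart. For ESM1 they were GNG11, a G protein gamma subunit (difference 0.197), and the noncoding RNA SNHG18 (0.212). GNG11 had 342, 309.7 and 99.7 CPM in GFP and 39.1, 43.0 and 45.3 CPM in POU5F1B replicates 1, 2 and 3, without overlap between the groups. For CEMIP they were TNFRSF11B, or osteoprotegerin, a secreted decoy receptor (0.0887), and TRIM9 (0.172), both high in the replicate 3 libraries, with 37.6 and 14.7 CPM of TNFRSF11B in those of GFP and POU5F1B against 4.72 to 6.82 CPM in the other 4. For SPOCK2 they were RGS9, a regulator of G protein signalling (0.163), and FBLN7 (0.185), which is itself among the secreted proteins described here.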
